A study of Mus musculus with 4 samples.

Results

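The Hox genes are the 39 rows of the deposited expression table whose symbol is Hox, a cluster letter from a to d and a number, out of 24328 symbols in all. They were sorted here by cluster and by number, the paralog group, and followed in polyadenylated RNA of muscle stem cells (satellite cells). Mice were perfused with paraformaldehyde so that the cells were fixed inside the muscle before sorting. The YFP group of 2 libraries came from mice 7 months old that carried Pax7CreERT2, a tamoxifen-inducible Cre driven by Pax7 and so limited to Pax7-expressing cells, and a YFP reporter at ROSA26. The DEK group of 2 libraries came from mice 4.5 months old with the same driver and a DEK-EGFP transgene at H11, and all these alleles were heterozygous. Age, reporter and locus therefore changed together with the group in all libraries and cannot be told apart. Which muscles were taken, the sex and the number of animals behind a library are not given in the sources used here, and if replicates are not separate animals the p-values measure only technical spread.

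Hox genes encode homeodomain transcription factors that give cells along the head to tail axis, and later along the limb, their regional identity. In mammals they lie in 4 clusters, and the order of genes in a cluster follows the order of their domains in the embryo, from anterior genes with low numbers to posterior genes with high numbers. Genes with the same number in different clusters are paralogs. Adult satellite cells are known to keep a Hox pattern that reflects the muscle they came from, with Hox genes low in head muscle and posterior genes high in limb muscle. The clusters are held on or off over generations of cells by Polycomb and trithorax chromatin complexes, and Dek is itself a chromatin protein.

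Totals of the 4 libraries ran from 541183 to 545123 FPKM (fragments per kilobase of transcript, scaled to the size of the library), which hold no counts and so leave the read depth unknown. Symbols above 0 numbered 15728 and 14997 in YFP replicates 1 and 2 and 17081 and 17177 in DEK replicates 1 and 2. Dek stood at 512 and 504 FPKM in YFP against 3196 and 1639 FPKM in DEK, as the group labels require. The 10 satellite cell markers, Pax7 among them, summed to 3065 and 2910 FPKM in YFP and to 2826 and 3427 FPKM in DEK. Markers of several other cell types were higher in DEK. The sums for pericytes and smooth muscle were not (982 and 993 FPKM in YFP against 786 and 1162 FPKM in DEK). Nor were those for mature myofibres (102 and 89.3 against 112 and 63.9 FPKM). Of the 10 pericyte and smooth muscle markers 2 were called higher and 0 lower, against 4.57% and 3.21% of all tested genes. They were Rgs5 (2.81 and 2.14 FPKM in YFP, 23.0 and 12.1 FPKM in DEK) and Myh11 (0.175 and 0 against 3.21 and 3.53 FPKM). Myh11 reached 1 FPKM in the DEK libraries alone, which fixed its direction. The 12 immediate early and dissociation genes, which respond to handling and stress, summed to 569.6 and 485 FPKM in YFP. In DEK they summed to 14810 and 3482 FPKM, with DEK replicate 1 apart. Of these 12 genes 7 were called higher, against 4.57% of all tested genes, and their part in the results was not tested. The 15 endothelial markers summed to 70.2 and 63.5 FPKM in YFP against 203 and 167 FPKM in DEK, the 10 markers of fibro-adipogenic progenitors to 647 and 608 against 1138 and 1146 FPKM, the 12 macrophage and leukocyte markers to 4.02 and 41.3 against 136 and 212 FPKM, and the 5 tenocyte markers to 8.74 and 6.11 against 51.3 and 56.3 FPKM. Of the endothelial markers Tek alone held 55.9 and 56.7 FPKM in YFP, most of those sums, and 78.8 and 66.5 FPKM in DEK. Kdr, Flt1, Ptprb and Erg were listed at 0 in both YFP libraries. Most of the fibro-adipogenic sums came from Dpt and Cd34. Dpt had 412 and 363 FPKM in YFP and 675 and 697 in DEK, Cd34 197 and 207 against 355 and 311 FPKM. Pdgfra and Col15a1 of that list overlapped between the groups. Lyz2 and S100a8 held most of the leukocyte sums in DEK. Lyz2 had 0.200 and 15.2 FPKM in YFP and 73.4 and 100.1 in DEK, S100a8 1.81 and 22.8 against 39.7 and 90.7 FPKM. In bulk RNA fewer cells of a type and less RNA per cell cannot be told apart.

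Only the Hoxa and Hoxc clusters were well represented. Summed over their members, Hoxa genes (chromosome 6, 11 genes) reached 114 and 119 FPKM in YFP replicates 1 and 2, and Hoxc genes (chromosome 15, 9 genes) reached 119.8 and 142 FPKM. Hoxd genes (chromosome 2, 9 genes) summed to 6.88 and 5.21 FPKM and Hoxb genes (chromosome 11, 10 genes) to 0.218 and 0.755 FPKM in the same libraries. Hoxa and Hoxc thus held 97.1% and 97.8% of the Hox total in YFP. Of the 39 genes 15 reached 1 FPKM in at least 2 libraries, and all 15 did so in every library, 24 did not, and 5 of those 24 were listed at 0 throughout (Hoxb1, Hoxb13, Hoxd1, Hoxd12 and Hoxd13). The 15 were 6 of 11 Hoxa genes, 7 of 9 Hoxc genes, 2 of 9 Hoxd genes and 0 of 10 Hoxb genes.

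**Figure D1:**
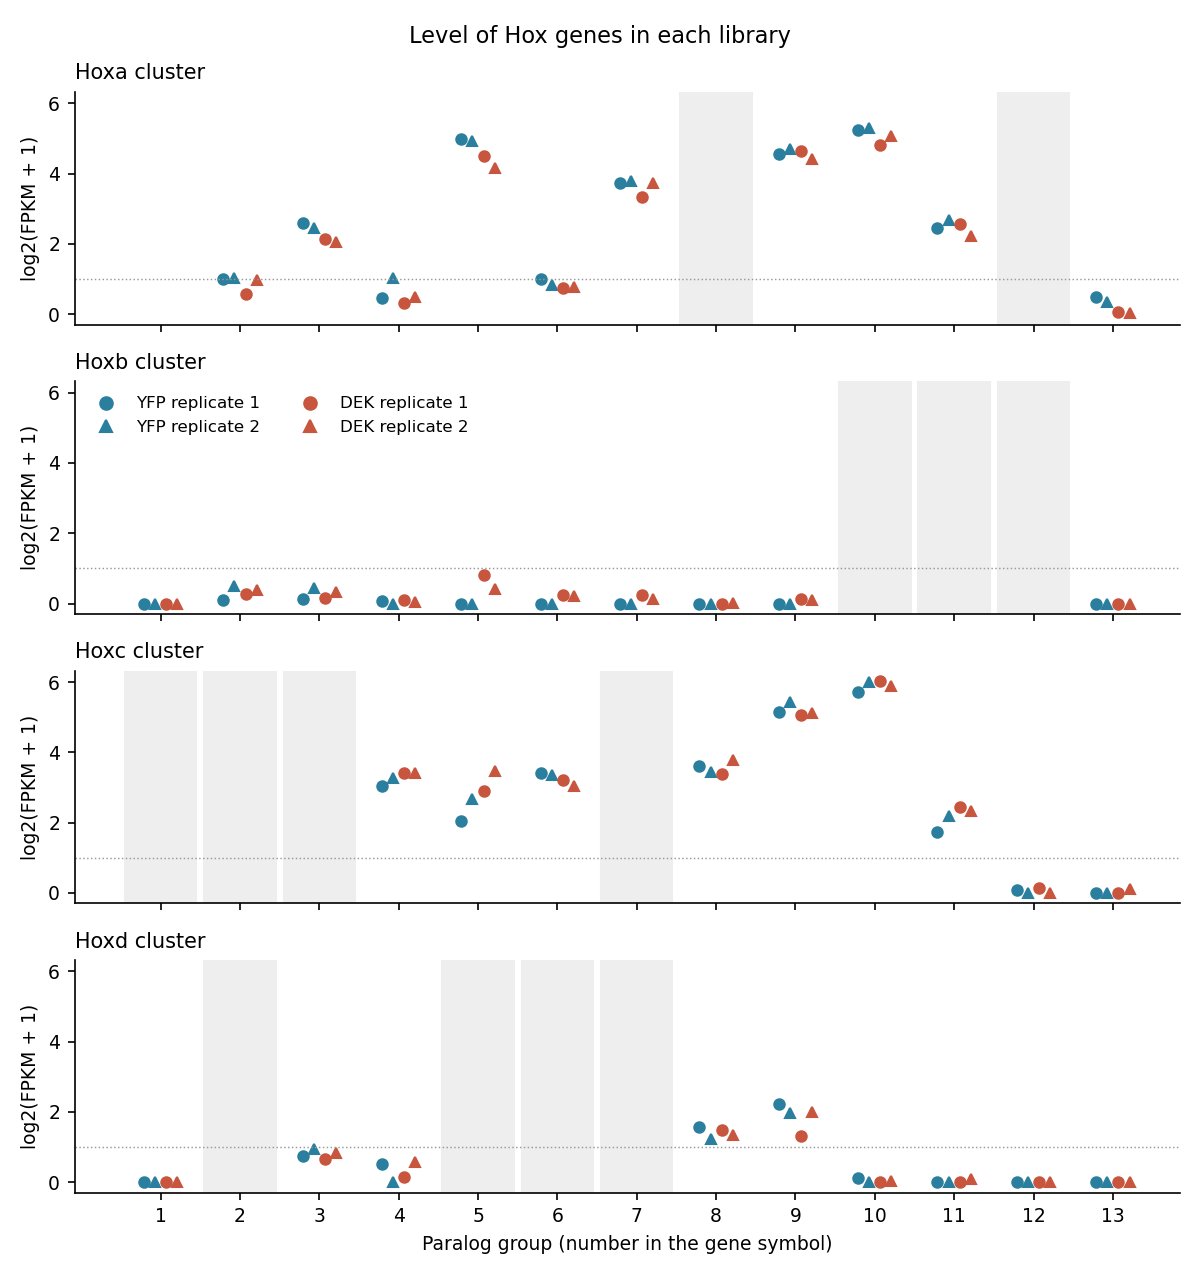
Level of Hox genes as log2(FPKM + 1) in each library, 1 panel per cluster, by paralog group; circles and triangles are replicates 1 and 2, grey bands mark numbers with no gene in that cluster, and the dotted line is 1 FPKM. Above the line in every library are Hoxa3, Hoxa5, Hoxa7 and Hoxa9 to Hoxa11, all Hoxc genes from Hoxc4 to Hoxc11, and Hoxd8 and Hoxd9, while Hoxb stays under it in all 4 libraries.

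Along the position axis the RNA was mostly posterior. Paralog groups 9 to 13 held 64.8% and 67.7% of the summed Hox level in YFP and 68.2% and 66.5% in DEK, groups 4 to 8 held 32.2% and 29.5% and then 29.6% and 31.1%, and groups 1 to 3 held from 2.21% to 2.98% in the 4 libraries. Group 10 alone summed to 88.2 and 101 FPKM in YFP and to 91.4 and 91.1 FPKM in DEK. The pattern stopped sharply after group 11. Groups 12 and 13 together had 6 genes, none of which exceeded 0.395 FPKM in any library, beside a group 11 that summed to between 6.82 and 9.34 FPKM.

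Hoxc10, a gene of the lumbar region and the hindlimb, was the highest Hox gene. It stood at 51.5 and 63.1 FPKM in YFP replicates 1 and 2 against 64.0 and 58.3 FPKM in DEK replicates 1 and 2, so the groups overlapped, and its mean ranked 1498 among the 12179 genes tested. Hoxc9, a thoracic gene, followed with 34.7 and 41.8 FPKM in YFP and 32.7 and 33.7 FPKM in DEK. Hoxa10, which in mice patterns the lumbar vertebrae and the upper limb segments, had 36.5 and 38.2 FPKM in YFP and 27.4 and 32.7 FPKM in DEK. The values of Hoxc9 and Hoxa10 overlapped each other within YFP, and both genes had their lower values in DEK. Hoxa5, a gene of the neck and upper chest, came next by the mean over all libraries, though below Hoxa9 in both DEK libraries, and is described with the comparison. Hoxa9, known for its induction in activated satellite cells of old mice, stood at 22.6 and 25.0 FPKM in YFP and 24.0 and 20.3 FPKM in DEK, with overlapping groups. These 5 genes made up between 69.0% and 74.2% of the Hox total in each library.

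A middle tier lay below them. Hoxc8, which shapes the lower neck and chest, stood at 11.2 and 9.81 FPKM in YFP and 9.51 and 12.9 FPKM in DEK. The remaining members of that tier with paralog numbers from 4 to 7 were Hoxa7, Hoxc4, Hoxc5 and Hoxc6, with means over the libraries of 11.6, 8.83, 6.27 and 8.62 FPKM. Hoxa11, which patterns the forearm and lower leg, had a mean of 4.62 FPKM, Hoxa3, a gene of the pharyngeal arches, 4.05 FPKM, and Hoxc11, a gene of the sacral region, 3.58 FPKM. The Hoxd members Hoxd9 and Hoxd8 had the lowest means over the 4 libraries among the 15, although Hoxc11 was lower than Hoxd9 in YFP replicate 1. Hoxd9 stood at 3.69 and 2.92 FPKM in YFP against 1.502 and 2.998 FPKM in DEK, and Hoxd8 had 1.97 and 1.35 FPKM in YFP against 1.82 and 1.53 FPKM in DEK. Hoxd3, the next gene of that cluster, had 0.684 and 0.933 FPKM in YFP against 0.569 and 0.777 FPKM in DEK. Just under the filter were also Hoxa2, at 0.989 and 1.05 FPKM in YFP and 0.503 and 0.981 FPKM in DEK, and Hoxa6, at 0.991 and 0.777 FPKM in YFP and 0.693 and 0.714 FPKM in DEK.

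Paralogs with the same number thus differed by cluster. Group 9 is the clearest case, with means of 35.7 FPKM for Hoxc9, 22.96 for Hoxa9, 2.78 for Hoxd9 and 0.0446 for Hoxb9, and in group 4 Hoxc4 at 8.83 FPKM stood beside Hoxa4 at 0.518, Hoxd4 at 0.262 and Hoxb4 at 0.0384 FPKM. The promoter windows of such paralogs that the sequence table holds are shown here, from 250 bases before to 50 bases after the annotated start, as RefSeq gives them for build GRCm38.p6 (the expression table was made on mm9), 5′ to 3′ with CpG dinucleotides in capitals. Hoxa5 is added as the member with the smallest p between the groups.
Hoxa9, chr6:52227321-52227620, minus strand: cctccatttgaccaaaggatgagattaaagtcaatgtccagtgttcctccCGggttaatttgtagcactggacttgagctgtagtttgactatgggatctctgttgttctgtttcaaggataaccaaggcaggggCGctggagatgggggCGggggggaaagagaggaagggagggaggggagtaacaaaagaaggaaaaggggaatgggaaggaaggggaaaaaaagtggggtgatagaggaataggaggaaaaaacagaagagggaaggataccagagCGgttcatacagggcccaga
Hoxd9, chr2:74697513-74697812, plus strand: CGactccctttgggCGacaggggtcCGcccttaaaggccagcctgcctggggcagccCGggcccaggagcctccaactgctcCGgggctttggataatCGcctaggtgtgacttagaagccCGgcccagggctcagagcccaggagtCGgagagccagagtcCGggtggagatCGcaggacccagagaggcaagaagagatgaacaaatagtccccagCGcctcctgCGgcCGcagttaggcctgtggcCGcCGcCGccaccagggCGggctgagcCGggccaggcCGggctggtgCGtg
Hoxc4, chr15:103034145-103034444, plus strand: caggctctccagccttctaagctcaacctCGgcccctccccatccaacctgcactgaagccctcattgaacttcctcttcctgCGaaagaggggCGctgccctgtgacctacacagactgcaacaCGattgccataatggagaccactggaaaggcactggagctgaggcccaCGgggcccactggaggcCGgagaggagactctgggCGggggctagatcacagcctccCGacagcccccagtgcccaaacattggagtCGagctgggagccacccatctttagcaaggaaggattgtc
Hoxb4, chr11:96318017-96318316, plus strand: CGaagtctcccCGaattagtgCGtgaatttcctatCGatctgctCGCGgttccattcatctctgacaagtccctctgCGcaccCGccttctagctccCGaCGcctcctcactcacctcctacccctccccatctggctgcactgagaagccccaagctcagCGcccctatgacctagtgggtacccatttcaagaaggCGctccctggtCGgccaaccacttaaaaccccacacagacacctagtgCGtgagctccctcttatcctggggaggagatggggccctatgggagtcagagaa
Hoxd4, chr2:74721728-74722027, plus strand: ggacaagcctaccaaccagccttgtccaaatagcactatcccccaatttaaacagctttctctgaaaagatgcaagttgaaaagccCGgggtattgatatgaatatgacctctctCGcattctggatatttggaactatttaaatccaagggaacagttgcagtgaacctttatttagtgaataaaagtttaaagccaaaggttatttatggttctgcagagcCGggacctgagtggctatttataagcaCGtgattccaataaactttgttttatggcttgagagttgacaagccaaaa
Hoxa5, chr6:52204538-52204837, minus strand: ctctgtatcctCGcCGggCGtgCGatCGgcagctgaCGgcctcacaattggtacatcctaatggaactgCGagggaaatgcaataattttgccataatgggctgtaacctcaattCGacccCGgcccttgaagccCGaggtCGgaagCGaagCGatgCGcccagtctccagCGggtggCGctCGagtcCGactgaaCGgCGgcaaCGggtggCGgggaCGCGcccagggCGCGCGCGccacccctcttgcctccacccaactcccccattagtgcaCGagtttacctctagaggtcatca

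Among these 6 windows the number of CpG did not follow the level. Which annotated start these cells used is not known from these data. A gene can have several windows, as Hoxa10 did, with 21 CpG in one and 12 in another. The window of Hoxa9 held 4 CpG and that of the much lower Hoxd9 held 20, the window of Hoxc4 held 9 beside 14 for Hoxb4 and 4 for Hoxd4, and Hoxa5 held 29. The sequence table had windows for 22 of the 39 Hox genes, 24 windows in all. The median number of CpG was 13.5 in the 10 windows of tested Hox genes, 17 in the 14 windows of the other Hox genes and 7 in all 32841 windows of that length. The composite motif TGATNNAT, at which Hox proteins bind together with Pbx proteins, was searched on both strands and lay in 4 of the 24 Hox windows, none of them of a tested gene, and in 8.85% of all windows. A match is a description of letters, and a window without a match says nothing about the factor.

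The comparison of DEK with YFP bears on Hox RNA levels in sorted satellite cells that carry the DEK transgene. No Hox gene passed the test. By limma 0 of the 15 tested members were called at an adjusted p under 0.05, against 7.78% of all tested genes (4.57% higher and 3.21% lower), and 2 of 15, 1 in each direction, had an unadjusted p under 0.05, against 29.1% of all tested genes (16.9% higher and 12.2% lower). The values of the groups did not overlap for 8 of the 15 members, 5 lower and 3 higher in DEK, where 60.9% of all tested genes did not overlap (26.9% lower and 34% higher). The smallest p that an exact permutation test can reach with 2 against 2 libraries is 0.333. The median log2 fold change was -0.16 over the 15 members and 0.05 over all tested genes, and 9 members lay below 0 and 6 above, where 45.3% of all tested genes lay below and 54.7% above.

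Hoxa5 was the member with the smallest p. It stood at 30.4 and 29.4 FPKM in YFP replicates 1 and 2 against 21.8 and 17.0 FPKM in DEK replicates 1 and 2, so both DEK values were lower than both YFP values (log2 fold change -0.61, SE 0.17, limma adjusted p = 0.0845, 95% confidence interval -1.03 to -0.19 before adjustment). Over the alternatives its log2 fold change ran from -0.78 to -0.44. Hoxc5, the second smallest, had an estimate of the opposite sign, with 3.13 and 5.42 FPKM in YFP and 6.50 and 10.01 FPKM in DEK (log2 fold change 0.82, SE 0.30, limma adjusted p = 0.142, interval 0.08 to 1.55). In DEK replicate 2 Hoxc5 was as high as its neighbour Hoxc4, and in the other 3 libraries it was lower. Paralogs 5 therefore had estimates of opposite sign, and neither passed.

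The other members differed by less. Hoxa3 stood at 5.10 and 4.53 FPKM in YFP and 3.43 and 3.15 FPKM in DEK (log2 fold change -0.44, SE 0.19, limma adjusted p = 0.196), and Hoxd9 had -0.44 (SE 0.28). Hoxc11 stood at 2.33 and 3.54 FPKM in YFP and 4.40 and 4.05 FPKM in DEK (log2 fold change 0.43, SE 0.23, limma adjusted p = 0.271). Hoxc4 had 7.26 and 8.71 FPKM in YFP against 9.72 and 9.64 FPKM in DEK (0.25, SE 0.18). For Hoxc10 the log2 fold change was 0.10 with an interval from -0.29 to 0.48, for Hoxa10 -0.31 with -0.69 to 0.07, and for Hoxa9 -0.10 with -0.50 to 0.29. A doubling or a halving lies outside these intervals, and so do some smaller shifts, while others lie within them. The smallest estimate was that of Hoxd8, 0.01 with an interval from -0.54 to 0.57.

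**Figure D2:**
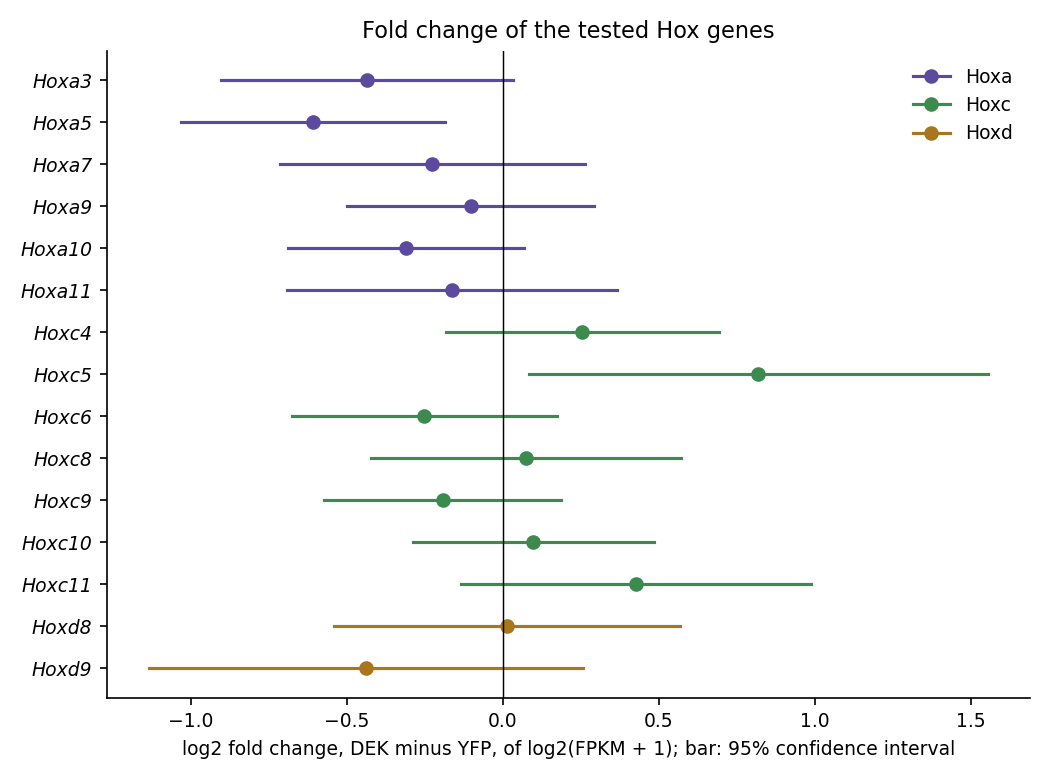
Log2 fold change of DEK over YFP for the 15 tested Hox genes (points) with 95% confidence intervals that are not adjusted for the number of genes (bars), on the log2(FPKM + 1) scale and coloured by cluster. All 6 Hoxa points lie left of 0, 5 of 7 Hoxc points lie right of it, and 2 intervals, those of Hoxa5 and Hoxc5, leave out 0.

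By cluster the estimates leaned in different directions. All 6 tested Hoxa members had a log2 fold change below 0, with a median of -0.27, though Hoxa9 and Hoxa11 turned to 0.01 without DEK replicate 2. Of the 7 tested Hoxc members 5 lay above 0, with a median of 0.10, and of these Hoxc8 and Hoxc10 fell below 0 (-0.05 and -0.03) when Rn45s, the ribosomal RNA precursor with 11.8% and 15.7% of all FPKM in the YFP libraries against 5.15% and 5.55% in the DEK libraries, was removed and the libraries were rescaled. That rescaling moved the median of all tested genes from 0.05 to -0.07. Summed Hoxa levels were 114 and 119 FPKM in YFP against 92.4 and 91.6 FPKM in DEK, a ratio of 0.789, while the Hoxc sums of 119.8 and 142 FPKM in YFP lay on both sides of the 135.3 and 135.9 FPKM in DEK. The Hoxa sum divided by the Hoxc sum, which no rescaling of a library can change, was 0.956 and 0.838 in YFP replicates 1 and 2 and 0.684 and 0.674 in DEK replicates 1 and 2. The groups did not overlap in that ratio, and with 2 libraries a group and 60.9% of all tested genes not overlapping it is given as a description with no test. Summed over all 39 genes the level was 241 and 266 FPKM in YFP and 233 and 235 FPKM in DEK, a ratio of 0.922.

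**Figure D3:**
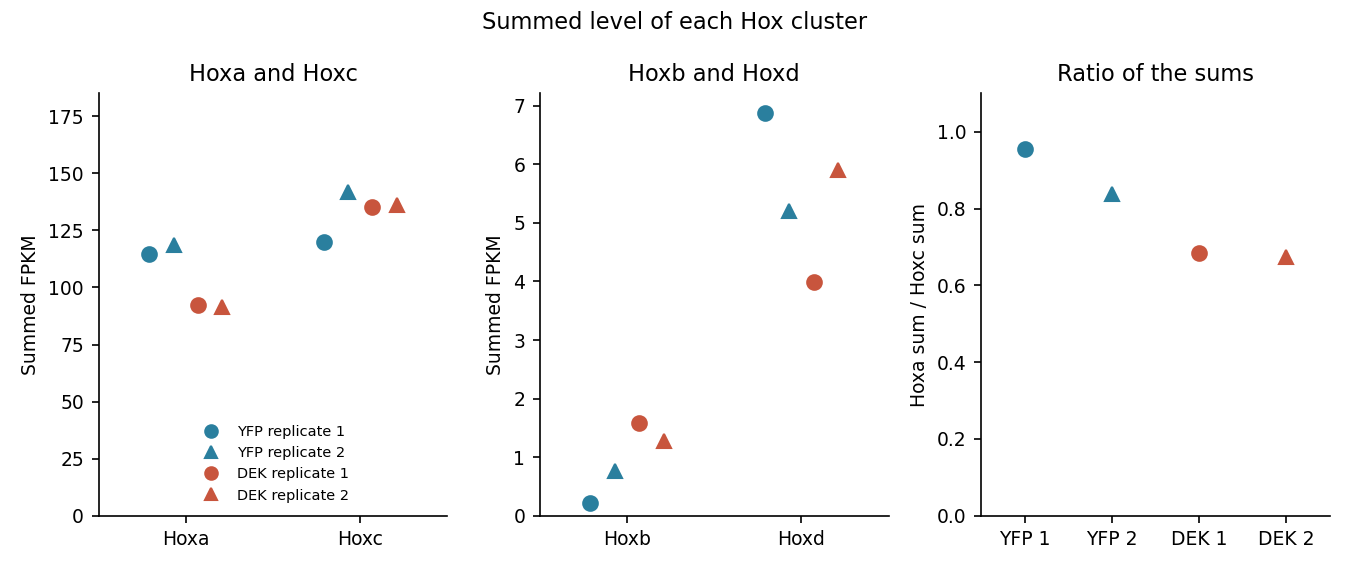
Summed FPKM of each Hox cluster per library (left, Hoxa and Hoxc; middle, Hoxb and Hoxd on a smaller scale) and the Hoxa sum divided by the Hoxc sum (right), with all axes from 0. The DEK libraries are lower than the YFP libraries for Hoxa (92.4 and 91.6 against 114 and 119 FPKM) and lie between them for Hoxc.

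Among the 24 members under the filter a few traces differed between the groups. Hoxb5, Hoxb6, Hoxb7 and Hoxb9, which pattern the chest region, had no value above 0 in YFP and values above 0 in both DEK libraries. Hoxb5 stood at 0.751 and 0.320 FPKM in DEK replicates 1 and 2, Hoxb6 at 0.181 and 0.169 FPKM, Hoxb7 at 0.183 and 0.0948 FPKM and Hoxb9 at 0.0964 and 0.0819 FPKM. Hoxb8, which lies between Hoxb7 and Hoxb9, was at 0 in DEK replicate 1 and at 0.0104 FPKM in DEK replicate 2. The more anterior Hoxb2 and Hoxb3 were present in all 4 libraries with overlapping groups. Hoxb2 had 0.0693 and 0.403 FPKM in YFP against 0.204 and 0.317 FPKM in DEK, and Hoxb3 had 0.0904 and 0.352 FPKM against 0.108 and 0.247 FPKM. These 4 are of 19 low members with any value above 0. Of the 6150 low symbols with any value 14.5% showed the same pattern, and 0.862% showed the reverse, as 0 Hox members did. Without overlap 5 low Hox members were higher in DEK, against 30.6% of low symbols, and 3 were lower, against 10.6%. With so few genes these counts are not far from those shares. Markers of other cell types were higher in the same DEK libraries, as given above. Called higher were 11 of 15 endothelial, 6 of 10 fibro-adipogenic, 3 of 5 tenocyte and 3 of 12 leukocyte markers. The share of all tested genes called higher was 4.57%. The called endothelial and leukocyte markers, and Pi16, Smoc2 and Tnmd, were under 1 FPKM in both YFP libraries. They passed the filter through the DEK libraries alone, which fixed their direction, so their calls add nothing to the marker sums. The part of other cell types in these traces was not tested. Hoxa13, the gene of the hand and foot plate, was among the lower ones, with 0.395 and 0.273 FPKM in YFP against 0.0510 and 0.0279 FPKM in DEK. When every symbol above 0 was tested, the limma adjusted p was 0.0819 for Hoxb6, 0.0927 for Hoxa13, 0.137 for Hoxb5, 0.166 for Hoxb7 and 0.170 for Hoxb9, and none passed.

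**Figure D4:**
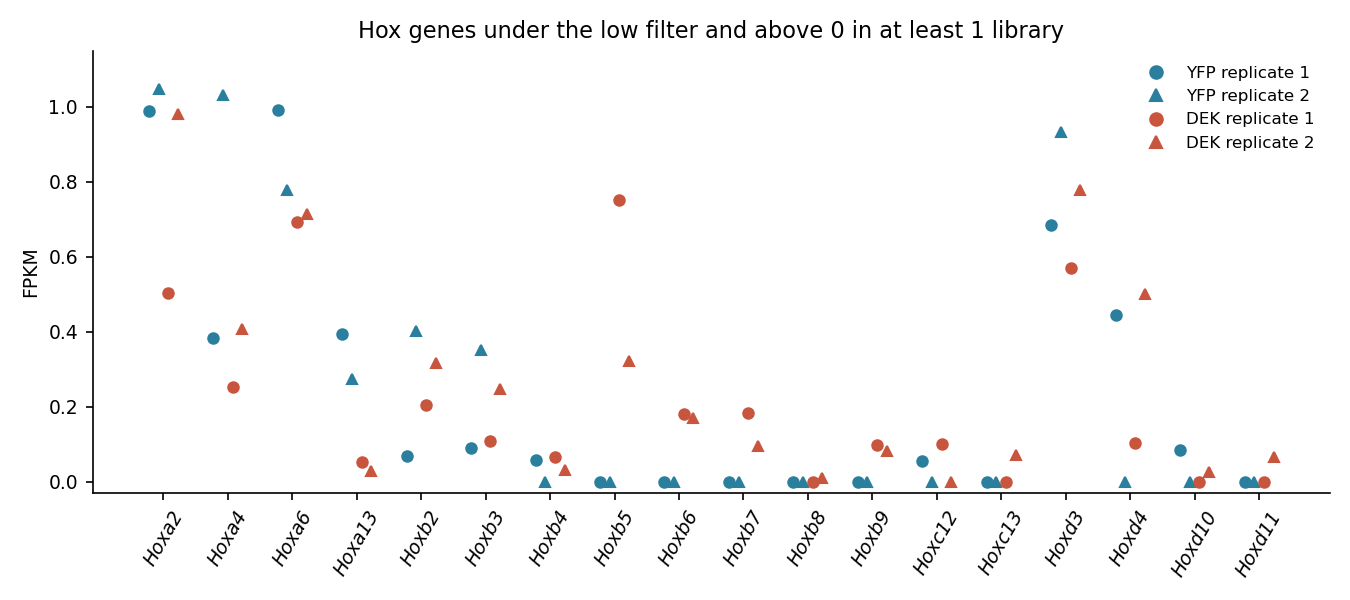
FPKM of Hox genes that missed the filter and were above 0 in at least 1 library, by library, on a linear axis. Hoxb5, Hoxb6, Hoxb7 and Hoxb9 have only DEK points above 0, and Hoxa13 has its YFP points at 0.395 and 0.273 FPKM above its DEK points at 0.0510 and 0.0279 FPKM.

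Hox proteins bind DNA together with TALE homeodomain cofactors of the Pbx, Meis and Pknox families, which raise their specificity. For this and the following lists the shares over all tested genes are 7.78% called and, at an unadjusted p under 0.05, 16.9% higher and 12.2% lower. Of 9 cofactor genes 6 were tested and 0 were called, with 1 higher and 1 lower before adjustment (p under 0.05) by limma, which with so few genes is not far from those shares. Meis3 was the highest, at 21.3 and 19.9 FPKM in YFP and 22.0 and 23.2 FPKM in DEK. Pknox1 stood at 18.5 and 14.3 FPKM in YFP and 20.9 and 26.8 FPKM in DEK (log2 fold change 0.52, SE 0.20, limma adjusted p = 0.159). Pbx2, picked with its values in view, had 7.25 and 7.87 FPKM in YFP and 3.41 and 4.11 FPKM in DEK and did not pass (log2 fold change -0.85, SE 0.19, limma adjusted p = 0.0526). It was called with TMM factors (limma adjusted p = 0.0432), quantile normalization (0.0470), Rn45s removed (0.0416), no variance trend (0.0469) and robust estimation (0.0466). No call of Pbx2 came with the replicate block (limma adjusted p = 0.0747), no filter (0.116) or 5 FPKM (0.0516). Nor did added values of 0.1 (limma adjusted p = 0.0611) or 5 (0.0501) call it. Without single libraries its log2 fold change ran from -0.955 to -0.744. Meis2, Pbx3 and Pbx4 missed the filter.

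The Hox clusters also give rise to noncoding RNAs. Of 16 such rows 5 were tested and 0 were called by limma, with 0 at an unadjusted p under 0.05. Hotair, transcribed from the Hoxc cluster and known in human cells as a binding partner of Polycomb complexes, was higher than every Hox gene except Hoxc10 in the YFP libraries, at 60.6 and 47.8 FPKM in replicates 1 and 2, where it exceeded Hoxc10 in replicate 1. In DEK it stood at 86.2 and 61.5 FPKM, above Hoxc10 in both libraries (log2 fold change 0.43, SE 0.21, limma adjusted p = 0.237). Hoxa11os, which runs antisense through Hoxa11 and cannot be told from it by reads that carry no strand, stood at 5.03 and 7.94 FPKM in YFP and 3.68 and 4.94 FPKM in DEK. Hottip, the noncoding RNA at the posterior end of Hoxa, had no value above 0 in YFP and had 0.152 and 0.0636 FPKM in DEK. The row of Mir196b, the hairpin gene between Hoxa9 and Hoxa10, held 0.934 and 1.68 FPKM in YFP and 1.60 and 2.78 FPKM in DEK, values that count fragments of longer polyadenylated RNA and not the mature miRNA. It is shown because miR-196 is known to repress Hox mRNAs, among them Hoxb8. The Hoxb8 row stayed at or under 0.0104 FPKM, and all Hoxb genes were under 1 FPKM in every library. A part of miR-196 in these values was not tested. The mature sequences, from RefSeq with the seed of bases 2 to 8 in capitals, share that seed.
mmu-miR-196b-5p, from chromosome 6 in the Hoxa cluster: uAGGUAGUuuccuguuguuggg
mmu-miR-196a-5p, from chromosomes 11 and 15 in the Hoxb and Hoxc clusters: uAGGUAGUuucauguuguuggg

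Several Hox rows share ground with other genes. In the RefSeq annotation the span of Hoxa3 covers Hoxa4, Hoxa5, Hoxa6 and the antisense Hoxaas2 and Hoxaas3, and Hoxd3 covers Hoxd4, so part of the reads of these rows may be shared between them. The genes that flank the clusters were measured as neighbours outside them. Of 15 such genes 14 were tested and 0 were called by limma, with 1 higher and 1 lower before adjustment (p under 0.05), where all tested genes gave 7.78% and 29.1%. Calcoco1, beside Hoxc and at 140 and 143 FPKM in YFP and 108 and 100.1 FPKM in DEK, came closest (log2 fold change -0.44, SE 0.13, limma adjusted p = 0.0926). Tax1bp1, beside Hoxa, had 94.0 and 89.98 FPKM in YFP against 107.6 and 108 FPKM in DEK (0.23, SE 0.13). Of the 9 ParaHox, Cdx and Evx genes, close relatives that act in the early embryo, 8 were listed at 0 in every library and Evx1 reached 0.0654 FPKM in DEK replicate 1 only.

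Position was also read from genes outside the Hox family. Tbx4, the T-box gene of the hindlimb, stood at 18.4 and 21.4 FPKM in YFP against 24.7 and 22.9 FPKM in DEK, while Tbx5, its forelimb counterpart, was listed at 0 in all 4 libraries. Pitx1, a hindlimb gene upstream of Tbx4 in the embryo, was listed at 0 in 3 libraries and at 0.111 FPKM in DEK replicate 2. Pax3, which marks satellite cells of some trunk and limb muscles, stood at 17.3 and 13.4 FPKM in YFP and 16.7 and 19.2 FPKM in DEK, and Lbx1, a gene of migrating limb muscle precursors chosen after its values were seen, between 9.44 and 13.5 FPKM. Of 20 limb and trunk genes 12 were tested and 0 were called by limma, with 0 higher and 3 lower before adjustment (p under 0.05), against 16.9% and 12.2% of all tested genes. Those 3, chosen after their values were seen, were Alx4 at 19.98 and 26.2 FPKM in YFP and 6.48 and 13.3 FPKM in DEK (log2 fold change -1.21, SE 0.33, limma adjusted p = 0.0773), Tbx18 with -0.86 (limma adjusted p = 0.0809) and Emx2 with -0.63 (limma adjusted p = 0.159). Tbx18 and Emx2 were under 1 FPKM in both DEK libraries and passed the filter through the YFP libraries alone. Their direction was thus fixed by that filter, and they add nothing to the count of lower genes. Alx4 was called with the replicate block (limma adjusted p = 0.0437). The other fits to all 4 libraries did not call it, among them no filter (limma adjusted p = 0.177) and Rn45s removed (0.0682). Without single libraries its log2 fold change ran from -1.68 to -0.743.

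A further list held 10 genes of the embryonic head and its muscles, not all of them particular to muscle or to the head. Of these 4 were tested, 1 fell and 0 rose by limma. At an unadjusted p under 0.05 the counts were 3 lower and 0 higher, against 12.2% and 16.9% of all tested genes. The gene that fell was Msc, which encodes the repressor musculin, known from jaw muscle precursors and expressed in satellite cells more widely. It went from 169 and 134 FPKM in YFP to 64.1 and 88.2 FPKM in DEK (log2 fold change -0.99, SE 0.21, limma adjusted p = 0.0438). On the same genes that call was lost whichever of the 4 libraries was left out (limma adjusted p from 0.0906 to 0.205), while with the filter on the 3 remaining libraries it held without DEK replicate 2 (0.0160) and was lost without each of the others. Tcf21, Dlx5, Dlx6 and Otx2 were listed at 0 in every library.

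Retinoic acid, made by Aldh1a enzymes and removed by Cyp26 enzymes, is a direct inducer of anterior Hox genes in the embryo. Of 18 genes of this pathway and of caudalizing signals 12 were tested, 0 rose and 1 fell by limma, against 7.78% of all tested genes called. Before adjustment (p under 0.05) 5 were higher and 4 lower, against 16.9% and 12.2%. Of the 5 higher genes Cyp26b1 passed the filter through the DEK libraries alone, which fixed its direction. The number called higher was 2 with the replicate block, 1 at 5 FPKM and, with the filter on the 3 remaining libraries, 3 without DEK replicate 1 and 1 without DEK replicate 2. Aldh1a2, a retinoic acid synthesis enzyme, fell from 3.35 and 3.75 FPKM in YFP to 0.0166 and 0.110 FPKM in DEK (log2 fold change -2.10, SE 0.21, limma adjusted p = 0.00745). It passed the filter through the YFP libraries alone, so its direction was fixed by that filter and its call adds nothing to the list. On the same genes that call was lost without YFP replicate 2 (limma adjusted p = 0.0663), DEK replicate 1 (0.0925) and DEK replicate 2 (0.0609). With the filter on the 3 remaining libraries it held without DEK replicate 1 (0.0396) and DEK replicate 2 (0.0180). Rarg, the most abundant retinoic acid receptor, stood at 191 and 213 FPKM in YFP and 111 and 163 FPKM in DEK (log2 fold change -0.58, SE 0.21, limma adjusted p = 0.137). Cyp26a1, Dhrs3 and Rarb were chosen after their values were seen, so they say nothing of the pathway, and in the same list Rdh10 and Crabp2 overlapped between the groups. Cyp26a1, which breaks retinoic acid down, stood at 4.36 and 10.9 FPKM in YFP and 24.0 and 82.9 FPKM in DEK (log2 fold change 2.52, SE 0.62, limma adjusted p = 0.0643), Dhrs3 at 22.2 and 27.1 against 70.5 and 245 FPKM (2.38, SE 0.54, limma adjusted p = 0.0529), and Rarb at 18.0 and 17.7 against 28.4 and 53.3 FPKM (1.08, SE 0.29, limma adjusted p = 0.0755). In all 3 DEK replicate 2 was the highest library. With the replicate block Cyp26a1 (limma adjusted p = 0.00990) and Dhrs3 (0.0320) were called, and at 5 FPKM Dhrs3 (0.0458). The other fits to all 4 libraries called none of Cyp26a1, Dhrs3 and Rarb. With no filter, for example, the limma adjusted p was 0.167, 0.149 and 0.171.

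**Figure D5:**
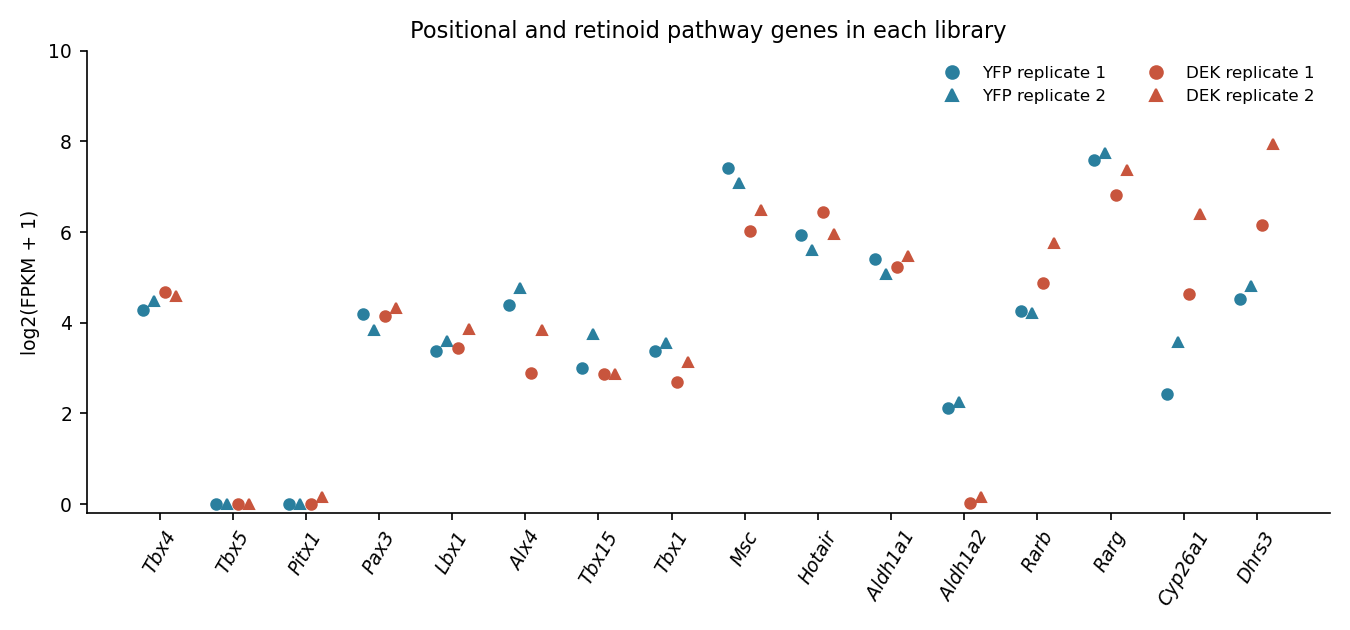
Level as log2(FPKM + 1) in each library of positional, Hotair and retinoid pathway genes, some of them chosen after their values were seen; circles and triangles are replicates 1 and 2. Tbx4 lies near 20 FPKM in all libraries with Tbx5 at 0, Aldh1a2 is near 0 only in DEK, and Cyp26a1 and Dhrs3 are highest in DEK replicate 2.

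Polycomb and trithorax genes, whose products keep Hox clusters off and on, were all measured above the filter. Of 26 members 0 were called by limma, with 2 higher and 4 lower before adjustment (p under 0.05) and a median log2 fold change of -0.06, against 7.78% of all tested genes called, 16.9% higher and 12.2% lower before adjustment, and a median of 0.05. Ash1l, a trithorax methyltransferase, stood at 111 and 128 FPKM in YFP against 119.8 and 118 FPKM in DEK. Ezh1, the Polycomb methyltransferase typical of resting cells, stood at 71.7 and 79.1 FPKM in YFP and 83.4 and 75.9 FPKM in DEK, with overlapping groups. Ezh2, its counterpart in dividing cells and picked with its values in view, had 10.6 and 11.3 FPKM in YFP and 5.16 and 6.59 FPKM in DEK (log2 fold change -0.81, SE 0.19, limma adjusted p = 0.0591). It was called with TMM factors (limma adjusted p = 0.0443), quantile normalization (0.0481) and Rn45s removed (0.0447). No call of Ezh2 came with the replicate block (limma adjusted p = 0.0783), no filter (0.117) or 5 FPKM (0.0525). Nor did added values of 0.1 (limma adjusted p = 0.0668) or 5 (0.0570), no variance trend (0.0593) or robust estimation (0.0505) call it. Without single libraries its log2 fold change ran from -0.956 to -0.657.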

How the data were processed

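The submitters' processing notes name the aligner STAR 2.5.3a, the assembler StringTie 1.3.3, R 3.4.1 and build mm9, and give neither settings nor the annotation used. Per the labels' protocols, RNA came from fixed, sorted cells through an FFPE kit and low-input SMART-Seq amplification; whether reads kept their strand is not stated. The deposited table gives 1 value per symbol and library. They are taken as FPKM that the authors computed; the header names no unit, and TPM over more genes than the table lists is possible, which would also be scaled by length. Of its value columns 0 were left out.

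The whole table was analysed as log2(FPKM + 1) with limma 3.58.1 in R 4.3.3. A symbol was tested if 2 libraries or more reached 1 FPKM (12179 tested, 12149 not). The model had the group as its single term, with limma's trended empirical Bayes variances, two-sided, with Benjamini-Hochberg adjustment over all tested genes and calls at an adjusted p under 0.05. The added 1 understates changes of low genes. Counts were not used here, so no counting intervals are given. Cluster and position sums add the deposited FPKM and have no test.

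Values per library were due for called Hox genes, the 3 highest of each cluster and the 4 largest changes in each direction; in each related list for called genes, filled up to 2 with the highest. Other genes are said to be picked with values in view, or are named only to say what was low or absent. The members and lists were chosen with earlier results of these data known. Alternatives were each library left out (on the same genes or with the filter on the 3 remaining), the replicate number as a block, added values of 0.1 and 5, no filter or 5 FPKM, TMM factors (trims of 30 and 5%), quantile normalization, Rn45s removed, no variance trend, robust estimation and an adjusted p under 0.1. The fit was tested on data simulated with the same spread for every gene and with changes in higher genes only. Real spread differs between genes, so that test says little about calls in these data. Results for a few genes are not reported here. RefSeq promoter windows and miRNAs are of GRCm38.p6.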

Additional observations from a re-analysis of the deposited data

How the results depend on the processing

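With 18 other fits, 0 Hox genes were called in either direction, and at an adjusted p under 0.1 Hoxa5 alone was called (1 lower). Most of the fits without a single library called far fewer genes over the whole table than the main fit. With so few Hox genes tested, the lack of Hox calls in those fits says little. Leaving out DEK replicate 1 on the same genes called 0 genes in the whole table, so that setting says nothing about Hox genes. The median log2 fold change of the tested Hox genes, -0.16, ran from -0.23 to -0.0608 without single libraries (-0.102 without DEK replicate 1 and with the filter on the other 3) and was -0.20 with an added value of 0.1, -0.0937 with 5, 0.0104 with no filter (34 members, of which 19 are low), -0.20 with TMM factors, -0.20 with quantile normalization and -0.29 with Rn45s removed. The summed Hox ratio, 0.922, ran from 0.878 to 0.970 without single libraries and was 0.839 with Rn45s removed and 0.896 with TMM factors. The Hoxb ratio of 2.94 was 1.89 without YFP replicate 1 and 6.55 without YFP replicate 2, so these low values decide it.

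Of 280 Hox gene and setting pairs 260 kept direction and side of the threshold and 19, in 5 genes, changed sign, none past the threshold. Without single libraries the lowest and highest log2 fold changes were -0.220 and 0.0128 for Hoxa9, -0.334 and 0.00707 for Hoxa11, -0.126 and 0.274 for Hoxc8, -0.0456 and 0.241 for Hoxc10, -0.155 and 0.182 for Hoxd8 and -0.106 and 0.0920 for Ash1l, on the same genes and with the filter on the remaining libraries alike; the sign also changed for Hoxc8 without YFP replicate 2 (-0.0117), Hoxd8 without DEK replicate 1 (-0.0639) and Ash1l without DEK replicate 2 (0.00497). With Rn45s removed the values were -0.0491 for Hoxc8, -0.0342 for Hoxc10, -0.0713 for Hoxd8 and -0.0543 for Ezh1. Hoxd8 was at -0.00867 with TMM factors and -0.0821 with quantile normalization, where Ezh1 was at -0.00398. The causes were not tested.

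Over the 8 related lists together 0 genes were called higher and 2 lower. The numbers called higher were 2 with the replicate block, 1 at 5 FPKM, 5 at an adjusted p under 0.1 and 0 to 3 without single libraries. Those called lower were 1 with an added value of 0.1, with no filter and at 5 FPKM, 4 with TMM factors, quantile normalization or Rn45s removed, 10 at an adjusted p under 0.1 and 0 to 4 without single libraries. Replicates 1 and 2 share only a number (correlation across genes of their differences in YFP and DEK 0.0635), and the block moved the calls over all genes from 557 to 383 higher and from 391 to 235 lower and the Msc call to an adjusted p of 0.0719 by limma. Read depth is unknown, so a value of 0 gives no upper limit for a gene.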

Other observations

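Outside the Hox family, other homeobox genes were looked at after their values were seen, as 85 symbols of families such as Prrx, Meox, Lhx, Tshz and Zeb, of which 22 were tested. By limma 2 were called higher and 1 lower in DEK, against 4.57% and 3.21% of all tested genes. On the same genes each of these 3 calls was lost whichever library was left out. Meox2, known from limb muscle and also from blood vessels, stood at 0.384 and 0 FPKM in YFP replicates 1 and 2 against 2.86 and 3.41 FPKM in DEK replicates 1 and 2 (a log2 fold change of 1.81, SE 0.25, limma adjusted p = 0.0173). Meox2 passed the filter through the DEK libraries alone, which fixed its direction, and its call was lost with no filter (limma adjusted p = 0.0564) and with an added value of 0.1 (0.0515). The endothelial marker sum was also higher in those DEK libraries, 203 and 167 FPKM against 70.2 and 63.5 FPKM, and its part was not tested. Tshz2 stood at 11.9 and 10.2 FPKM in YFP and 22.8 and 19.5 FPKM in DEK (log2 fold change 0.87, SE 0.17, limma adjusted p = 0.0401). Its call was lost with the replicate block (limma adjusted p = 0.0557), no filter (0.0841) and Rn45s removed (0.0508). Prrx2, a limb mesenchyme gene, stood at 4.91 and 5.30 FPKM in YFP and 0.325 and 1.22 FPKM in DEK (log2 fold change -1.83, SE 0.29, limma adjusted p = 0.0246), while its paralog Prrx1 stood at 48.1 and 47.8 FPKM in YFP and 44.0 and 44.6 FPKM in DEK (log2 fold change -0.11, SE 0.13). The Prrx2 call was lost with no filter (limma adjusted p = 0.0841) and with an added value of 0.1 (0.0506).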
